A study of Mus musculus with 34 samples.

Results

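Sonic hedgehog signalling and its BMP-antagonist relay were followed through 7 genes, Shh, Ptch1, Gli1, Gli2, Gli3, Grem1 and Bmp4, in genome-wide maps of chromatin cofactors and histone marks of the mouse embryo. They were chosen by symbol, not by measured values, from 18835 gene names in the deposited peak tables. Each gene was given a point, the position that its peaks agree on when the authors' peak summit and distance to the gene are combined, and every peak whose midpoint lay within 200 kb of the point was taken as lying in its territory. Such a point could be set for 15684 genes. With Gli1, which was placed from a single peak, 15685 genes are the background for all counts here.

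The study mapped FLAG-tagged cofactors by chromatin immunoprecipitation and sequencing with the anti-FLAG M2 antibody. SMARCA4, the ATPase of the SWI/SNF chromatin remodelling complex, was mapped in limb, face, forebrain, midbrain, hindbrain, neural tube and heart of embryonic day 11.5 and in embryonic stem cells (ESC). SMARCC2, another subunit of that complex, was mapped in face and hindbrain, the histone acetyltransferase EP300 in face and ESC, and NCOA1 and NCOA2, which assist nuclear receptors, in hindbrain. All these samples, and their controls, carry the strain label 129/C57BL/6 and the genotype label SMARCA4/FLAG knock-in, also where another protein was precipitated. The ESC came from the same line, and embryonic tissue was pooled from about 150 or 300 embryos of both sexes. Limb and forebrain of CD1 embryos served for H3K4me1, H3K4me3 and H3K27me3, and CD1 limb for H3K27ac, so the marks and the cofactors come from different strains. No histone list was used for the other tissues. The hindbrain SMARCA4 sample has forebrain in its tissue tag and was kept as hindbrain after its title. With 1 library per condition there was no replicate check, and no test was made. Intervals are exact (Clopper-Pearson) at 95% and cover counting error only.

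Secreted Hedgehog ligand binds Patched, which otherwise holds the signal transducer Smoothened inactive, and the GLI zinc finger factors carry the signal to the genes. In the limb bud, Shh is made by a small group of posterior mesenchymal cells. Gremlin 1 binds and blocks BMP ligands, and through this keeps the fibroblast growth factors of the apical ridge expressed, which in turn maintain Shh. GLI3, processed to a repressor where Hedgehog is low, sets the front limit of these domains. H3K4me3 marks gene starts, H3K4me1 enhancers and the flanks of starts, H3K27ac active elements, and H3K27me3 regions under Polycomb repression. Whole limb holds cells with and without each gene's expression, and the same mark in a few cells or weakly in many cannot be told apart.

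The 14 FLAG lists held 1414 to 35099 peaks, with the longest for SMARCA4 in face and 5251 for SMARCA4 in limb. Of 10 limb marker genes 8 had a point, and 7 of these had a limb SMARCA4 peak within 200 kb, beside 78.2% of all genes. The exception was Tbx5, a forelimb gene. Face and neural tube SMARCA4 had peaks near all 8 and heart SMARCA4 near 7, so the count does not set limb apart. In the other SMARCA4 lists apart from hindbrain, every placed marker gene of the labelled tissue had a peak except En1 in midbrain. The hindbrain list had one near 4 of 5 hindbrain markers, while the forebrain list had one near all 5. Face SMARCA4 reached every placed marker of the other tissues as well. Of all genes, 32.5% had a midbrain SMARCA4 peak within 200 kb, and between 77.5% and 99% had one in each of the remaining lists. These counts therefore do not set the labelled tissues apart either. Limb SMARCA4 also had peaks near 3 of 5 endothelial markers (5 peaks in all; none at Kdr or Tek) and near 1 of 2 placed erythroid markers. Their part in the results was not tested.

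The start regions of the 7 genes differed in which cofactor lists and which marks covered them. The promoters of 3 of them are printed 5′ to 3′ from RefSeq with 250 bases before and 50 after the start. They stand for a start with limb SMARCA4 and no H3K27me3 (Gli3), a start with both (Grem1), and a start with H3K27me3 whose limb SMARCA4 peak lay further off (Bmp4). Capitals mark a GC box (GGGCGG) or a CCAAT box (CCAAT).
Gli3: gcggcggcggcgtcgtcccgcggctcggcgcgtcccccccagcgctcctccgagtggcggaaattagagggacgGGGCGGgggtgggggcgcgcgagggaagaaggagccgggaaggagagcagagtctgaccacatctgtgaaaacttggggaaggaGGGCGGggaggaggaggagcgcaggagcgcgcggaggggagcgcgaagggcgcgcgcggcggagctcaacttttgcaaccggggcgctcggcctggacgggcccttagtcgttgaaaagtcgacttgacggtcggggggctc
Grem1: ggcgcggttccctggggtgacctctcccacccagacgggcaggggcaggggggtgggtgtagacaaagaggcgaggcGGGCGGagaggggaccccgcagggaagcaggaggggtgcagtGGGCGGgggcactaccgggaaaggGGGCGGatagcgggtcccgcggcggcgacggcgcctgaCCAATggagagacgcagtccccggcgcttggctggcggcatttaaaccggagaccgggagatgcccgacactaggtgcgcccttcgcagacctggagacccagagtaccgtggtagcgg
Bmp4: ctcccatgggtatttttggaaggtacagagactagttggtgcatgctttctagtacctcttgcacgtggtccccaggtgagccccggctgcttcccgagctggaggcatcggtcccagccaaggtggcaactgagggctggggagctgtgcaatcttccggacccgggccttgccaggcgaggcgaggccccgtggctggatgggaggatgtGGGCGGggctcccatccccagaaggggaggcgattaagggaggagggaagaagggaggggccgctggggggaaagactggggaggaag
In GRCm38.p6 these are chr13:15463473-15463772 on the + strand, chr2:113758599-113758898 on the - strand and chr14:46390620-46390919 on the - strand. The peaks are in mm9, a different build, and the promoters were not placed among them.

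The promoter table held 5 of the 7 genes, Gli2, Gli3, Ptch1, Grem1 and Bmp4. All 5 had a GC box on one of the strands, a motif that 35.66% of the 32851 promoters of the table hold. Grem1 alone of the 5 had CCAAT, which 37.41% of promoters hold, and none had TATAAA (13.62% of promoters). The GLI motif GACCACCCA, searched on both strands, was in none of the 5 and in 0.2527% of all promoters. None of these motifs contains another. CpG dinucleotides numbered 47 in Ptch1, 39 in Gli3, 28 in Gli2 and in Grem1, and 12 in Bmp4, against a median of 7 over all promoters. Bmp4, the ligand that Gremlin 1 blocks, thus had the fewest CpG of the 5, with an observed to expected ratio of 0.42 beside 1.12 in Gli3.

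A gene start was called held by a list when a peak lay over the point or within 1 kb of it. For Gli1, whose point could not be set by agreement, the distance was taken from 2 possible positions, 1504 bp to each side of the summit of its peak. Every other gene had 1 position, so the rule was more lenient for Gli1 than for the background. SMARCA4 in limb held the starts of 4 of the 7 genes, Gli1, Gli2, Gli3 and Grem1 (25.4% of all genes). SMARCA4 in face held 6, all but Shh (71.6%). SMARCA4 in neural tube held Shh, Gli1, Gli3 and Grem1, 4 of 7 (52.6%). Hindbrain SMARCA4 held Gli3 and Ptch1 (2 of 7, 17.3%), forebrain SMARCA4 held Gli1 (1 of 7, 29.3%) and heart SMARCA4 held Ptch1 (1 of 7, 20.1%). The midbrain and ESC SMARCA4 lists held no start of the 7 genes by this rule (1.94% and 6.25% of all genes). An ESC SMARCA4 peak did lie over the summit that stands for Gli1, more than 1 kb from both positions. With 2 kb in place of 1 kb, ESC SMARCA4 held Gli1, and limb, neural tube and heart SMARCA4 each gained Bmp4, which made 5, 5 and 2 starts.

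**Figure D1:**
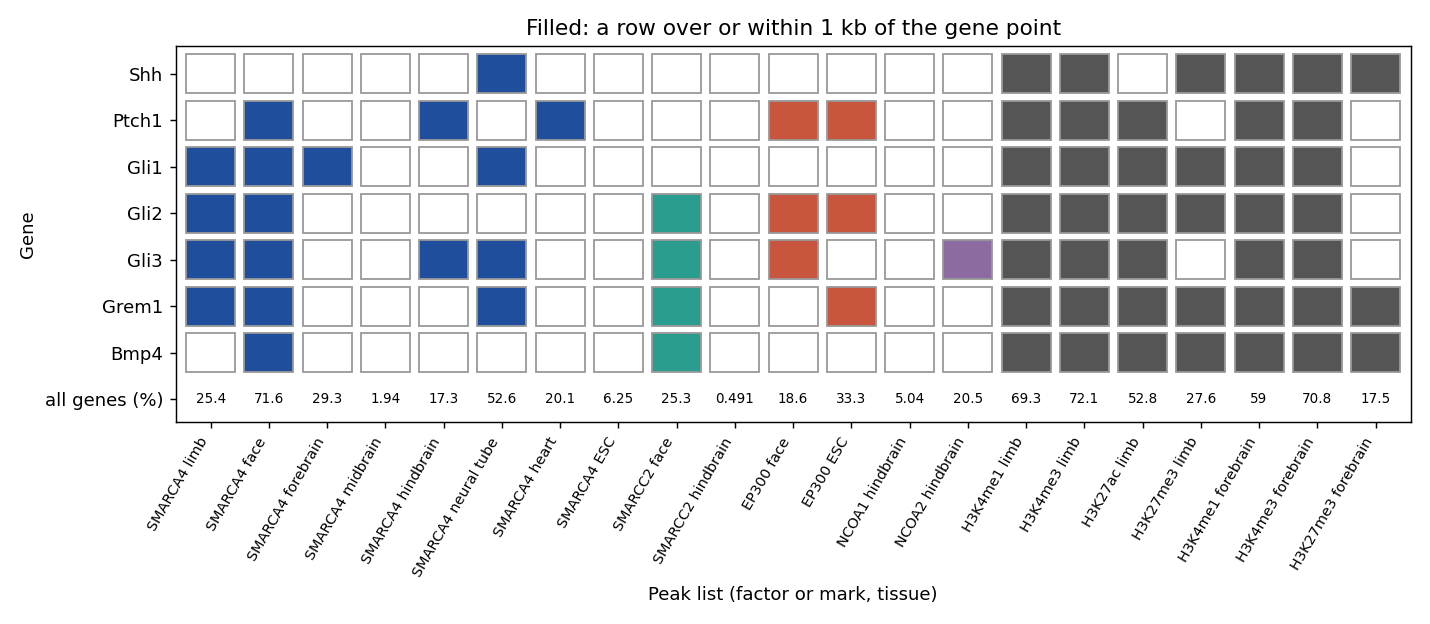
Occupancy of the 7 gene starts. Each column is a peak list and each row a gene; a filled square means that the list has a peak over or within 1 kb of the gene point (for Gli1, of either possible position), with colours for SMARCA4 (blue), SMARCC2 (green), EP300 (red), NCOA2 (purple) and histone marks (grey), and the bottom row gives the percent of all 15685 genes with such a peak. The limb SMARCA4 column is filled for 4 genes, and limb H3K27me3 is missing at Gli3 and Ptch1 alone.

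Among the other cofactors, SMARCC2 in face held the starts of Gli2, Gli3, Grem1 and Bmp4 (4 of 7, 25.3% of all genes). EP300 in face held Gli2, Gli3 and Ptch1 (3 of 7, 18.6%), and each of these peaks also overlapped the control list of that sample. EP300 in ESC held Gli2, Ptch1 and Grem1 (3 of 7, 33.3%). NCOA2 in hindbrain held Gli3 (1 of 7, 20.5%). NCOA1 in hindbrain and SMARCC2 in hindbrain held none of the 7 (5.04% and 0.491% of all genes).

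Limb H3K4me1 and limb H3K4me3 lay at all 7 starts (69.3% and 72.1% of all genes), as did forebrain H3K4me1 and H3K4me3 (59% and 70.8%). Limb H3K27ac lay at 6 starts and was missing at Shh (52.8%). Limb H3K27me3 lay at 5 starts, Shh, Gli1, Gli2, Grem1 and Bmp4 (27.6%), and forebrain H3K27me3 at 3, Shh, Grem1 and Bmp4 (17.5%). The genes thus fell into 3 classes. The 2 secreted factors of the BMP branch and the Shh ligand carried H3K4me3 and H3K27me3 in both tissues, which 13.1% of all genes did. The activator genes Gli1 and Gli2 had H3K27me3 in limb without a forebrain peak at the start (12.2% of all genes). For Gli2 this rests on the limit of 1 kb, since forebrain H3K27me3 came within 2 kb of its point and lay in its merged start region. Ptch1 and Gli3 had H3K27me3 at the start in neither tissue. At 4 starts, Gli1, Gli2, Grem1 and Bmp4, limb H3K27ac and limb H3K27me3 were both present, against 7.95% of all genes. Limb SMARCA4 joined limb H3K4me3 and H3K27me3 at Gli1, Gli2 and Grem1 (8.91% of all genes). Over all genes with limb H3K4me3 at the start, limb SMARCA4 lay at 37.2% of those that also had limb H3K27me3 and at 32.3% of those without.

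The extent of the marks at the starts differed as well. Limb H3K27me3 covered 16.55 kb at Shh, 4.304 kb at Grem1, 2.858 kb at Bmp4, 2.481 kb at Gli2 and 1.422 kb at Gli1. The Shh domain was the widest of the 5 and ranked 451 of 13137 in its list, where rank 1 is the authors' best peak. In forebrain it was 4.455 kb wide at Shh, 4.064 kb at Bmp4 and 1.846 kb at Grem1. Limb H3K27ac ranked 218 of 17188 at Gli3, 777 at Ptch1, 1290 at Gli2, 4073 at Bmp4, 5493 at Gli1 and 11147 at Grem1. The 2 starts without H3K27me3 thus had the best H3K27ac ranks, and Grem1, the BMP antagonist, the poorest. H3K4me1 covered 15.15 kb in limb at Ptch1, the receptor gene, and 1.468 kb at Gli3.

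Within 200 kb the 14 FLAG lists had 13 peaks at Shh, 43 at Ptch1, 77 at Gli1, 42 at Gli2, 15 at Gli3, 16 at Grem1 and 24 at Bmp4. The median of the 7 was 24, beside 38 over all placed genes. Gli1 was the highest and Shh the lowest. At least as many peaks as at Gli1 lay near 6.968% of all genes, and at least as many as at Shh near 89.99%. Of the 230 peaks, 173 came from the 8 SMARCA4 lists and 68 of those from face alone.

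**Figure D2:**
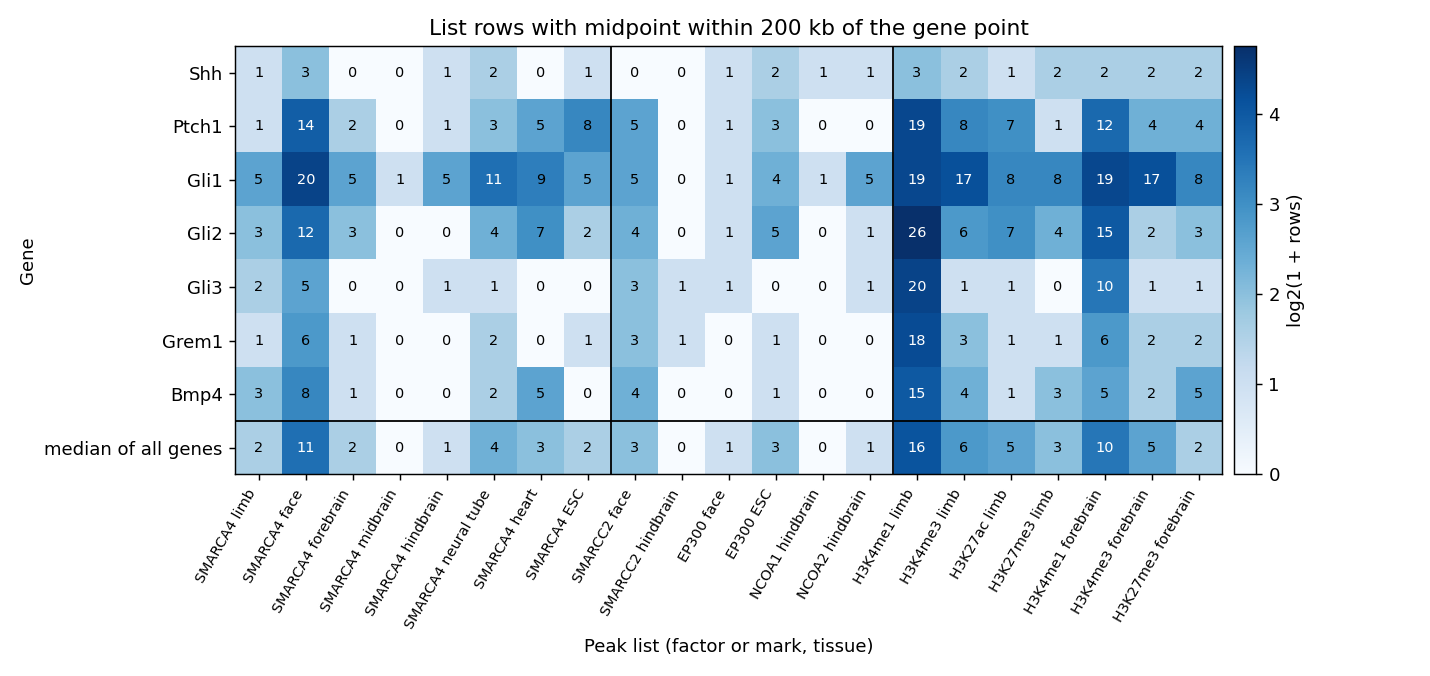
Peaks within 200 kb of each gene, by list. Columns are the 14 FLAG lists (SMARCA4 first) and the 7 histone lists, rows are the 7 genes and the median of all placed genes; numbers are peak counts and the colour is log2(1 + count). Shh has at most 3 peaks in any column, and Gli1 has 20 in SMARCA4 face.

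Limb SMARCA4 had 5 peaks near Gli1, 3 near Gli2, 3 near Bmp4, 2 near Gli3 and 1 each near Shh, Ptch1 and Grem1. All 7 genes thus had at least 1, as did 78.2% of all genes, and the median of the 7 equalled that of all genes, 2. Face SMARCA4 had peaks near all 7 (99% of all genes) and neural tube SMARCA4 near all 7 (95.6%). Forebrain and ESC SMARCA4 had peaks near 5 each (84.3% and 79.8%), hindbrain and heart SMARCA4 near 4 each (77.5% and 86.5%), and midbrain SMARCA4 near Gli1 alone (1 of 7, 32.5%). In heart the median of the 7 genes was 5 peaks against 3 for all genes, although 3 of the 7, Shh, Gli3 and Grem1, had none. SMARCC2 face had peaks near 6 (87.7%) and EP300 ESC near 6 (91.9%). EP300 face had peaks near 5 (69.9%), NCOA2 near 4 (69.3%), NCOA1 near 2 (32.8%) and hindbrain SMARCC2 near 2 (29.7%). These shares lie around those of all genes, and with 7 genes no difference from them could be read.

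Shh encodes the Hedgehog ligand of the limb and the floor plate. All 9 table peaks named Shh agreed on its point, 28793628 on chromosome 5 of mm9. The FLAG lists had 2 peaks within 50 kb of it. One was the neural tube SMARCA4 peak at the start, chromosome 5, 28790651 to 28792650, rank 12675 of 14362, which no other FLAG list shared. It lay in H3K4me1, H3K4me3 and H3K27me3 of both limb and forebrain and overlapped the midbrain control. The other was a face SMARCA4 peak 7.519 kb below the point. The single limb SMARCA4 peak of the territory, rank 1143 of 5251, was 149.9 kb below and lay in a region that 8 of the 14 FLAG lists shared, chromosome 5, 28642551 to 28645100. That region is at the start of another gene, which the tables call Prr8, it carried limb H3K27ac, and it accounted for 8 of the 13 FLAG peaks counted for Shh.

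As background, a limb enhancer of Shh lies far from it, in an intron of Lmbr1, outside the 200 kb window. The FLAG lists had 25 peaks within 200 kb of Lmbr1 and 11 of Rnf32, its neighbour (73.27% and 91.88% of all genes had at least as many). Limb SMARCA4 had 2 peaks near Lmbr1, 1 at its start (rank 4747 of 5251) and 1 at 89.92 kb above (rank 4630), and 1 near Rnf32, which was the one at the Lmbr1 start. Below the Lmbr1 point the FLAG lists had 2 peaks away from gene starts. One was in ESC SMARCA4, 17.68 kb below, and one in face SMARCA4, 63.92 kb below and ranked 34359 of 35099. The face peak overlapped limb H3K4me1 and no other FLAG list, no other mark and no control. These 2 peaks were singled out after its values were seen.

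Ptch1 encodes the Hedgehog receptor and is itself a Hedgehog target gene. Its point, 63666828 on chromosome 13, rests on 12 of 23 table peaks with its name; others gave 63615649 or 63641220. The start region, chromosome 13, 63664322 to 63667769, held face, hindbrain and heart SMARCA4, EP300 in face and EP300 in ESC, with no limb peak. In it, EP300 face counted 308 tags at an authors' fold enrichment of 5.6 (false discovery rate 0.31%), heart SMARCA4 66 tags at 4.98-fold, hindbrain SMARCA4 45 tags at 7.12-fold and EP300 ESC 9 tags at 12.33-fold. These fold values are the authors' and are not comparable between lists.

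The limb SMARCA4 peak of Ptch1 lay 8.072 kb above the point (rank 2632 of 5251), in a region shared with face, forebrain and neural tube SMARCA4 and SMARCC2 face, chromosome 13, 63672651 to 63676850. All 7 histone lists had a peak in this region, H3K27me3 of both tissues included, although the start itself had no H3K27me3. Further regions over limb H3K27ac lay 68.44 kb and 37.17 kb below the point, at 63597927 to 63598849 and 63628723 to 63630589. Both were shared by face and ESC SMARCA4, and the nearer one by SMARCC2 face too. ESC SMARCA4 had 8 peaks around Ptch1 and 5, 2, 1, 1, 0 and 0 around Gli1, Gli2, Grem1, Shh, Gli3 and Bmp4. At least 8 lay near 0.7587% of all genes, at least 5 near 9.06% and at least 2 near 55.88%. Many pairs of gene and list were counted, and the high count at Ptch1 was not tested. The best ranked of the 8, 548 of 6764 with 25 tags at an authors' fold of 11.31, lay 23.89 kb below the point in H3K4me1 of both tissues and in no other FLAG list. The authors' table puts it 1.55 kb from the nearest position of the gene.

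**Figure D3:**
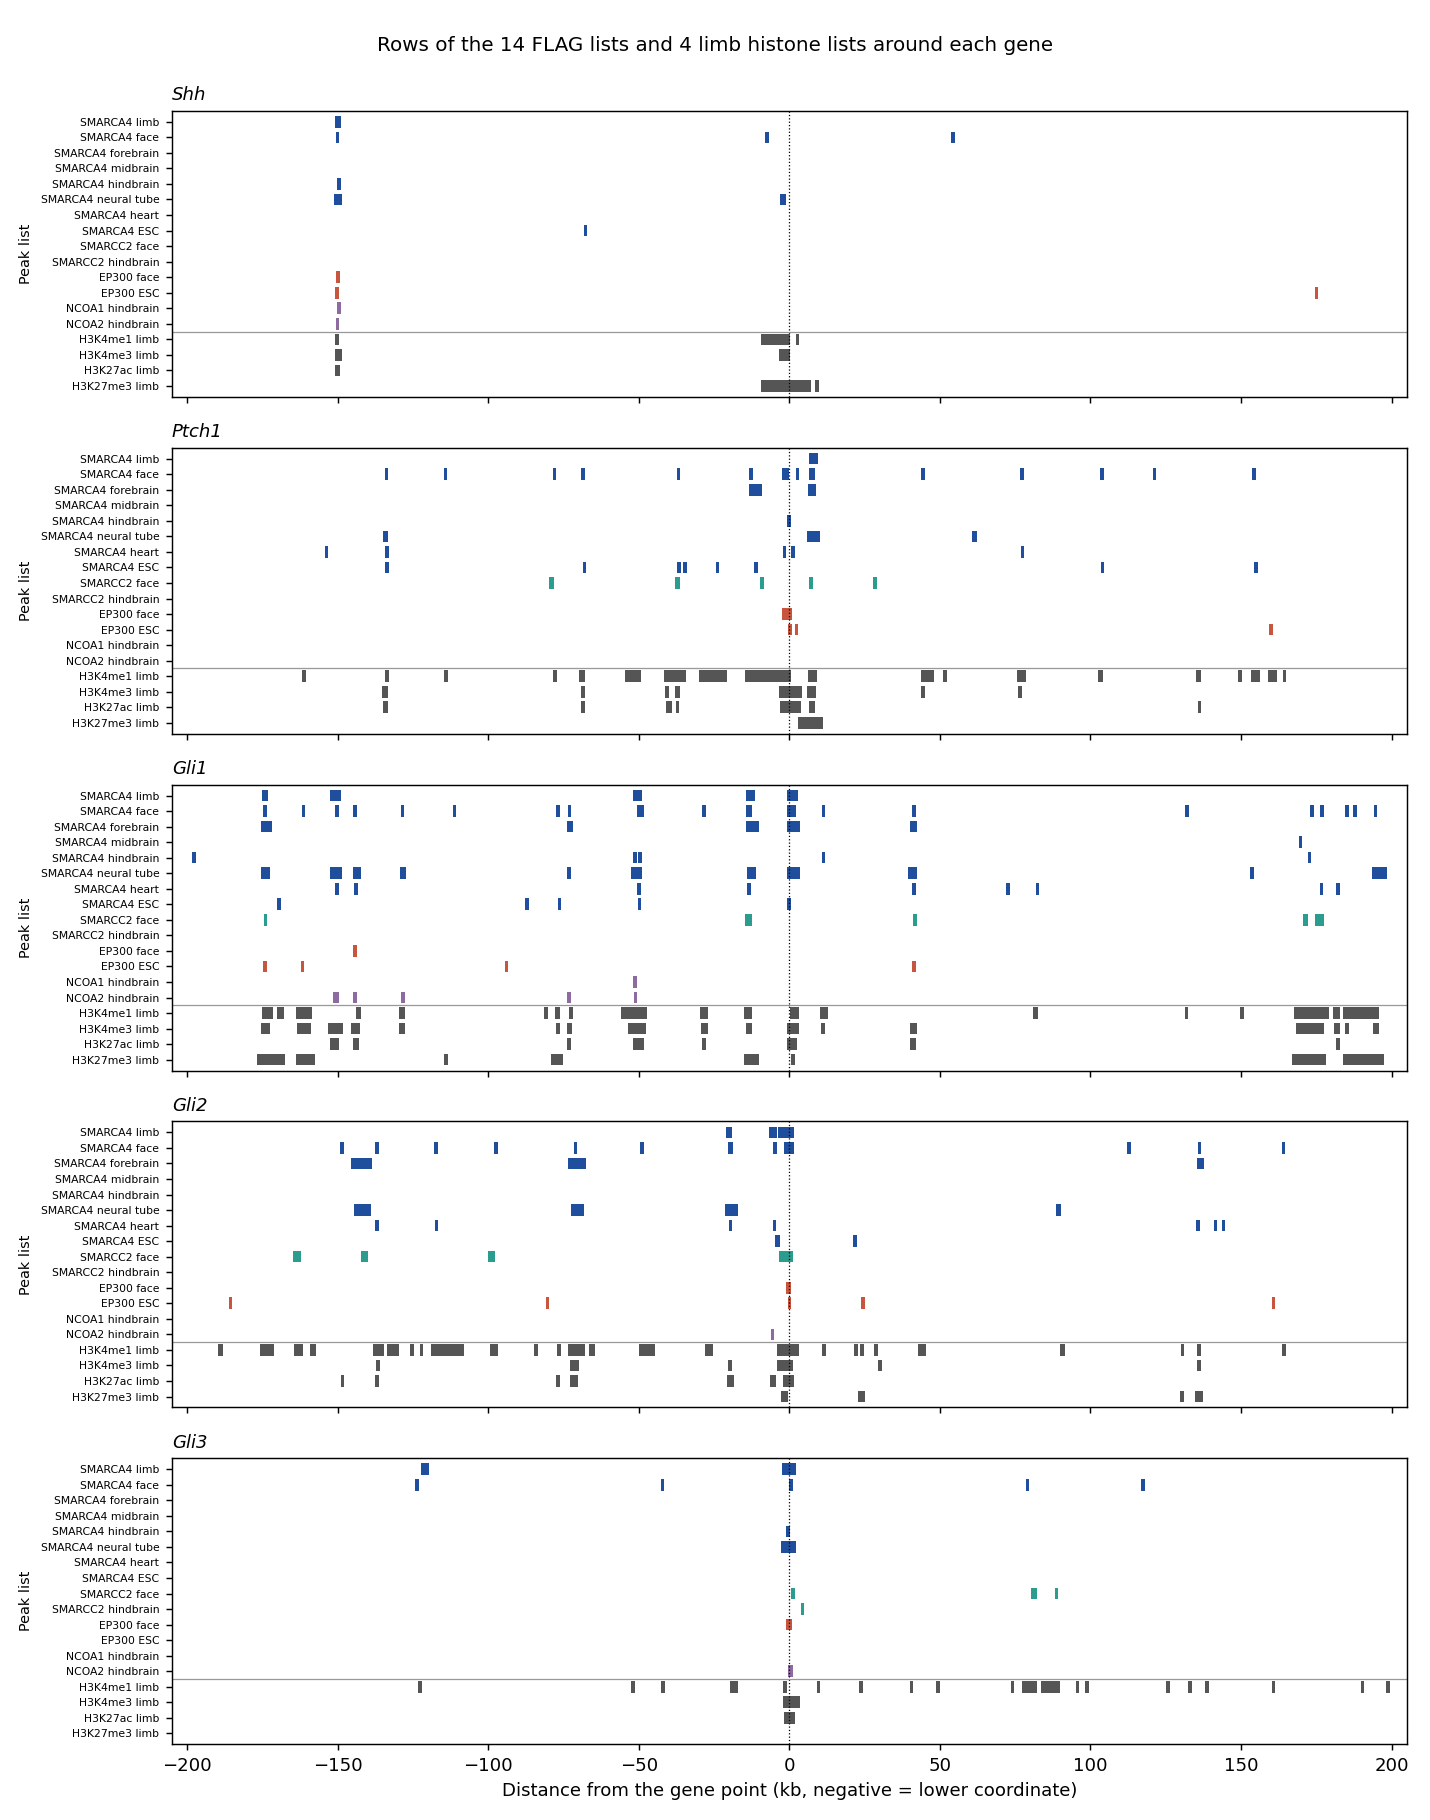
Maps of the territories of the ligand, receptor and GLI genes. The horizontal axis is the distance from the gene point in kb, each line is a list (14 FLAG lists above the grey line, 4 limb histone lists under it), and each bar is a peak drawn to scale, or at 1.2 kb where it is narrower. FLAG peaks near Shh are few and stack at 149.8 kb below the point, while Gli1, Gli2 and Ptch1 have peaks along the whole window.

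Gli1, Gli2 and Gli3 encode the zinc finger factors that act at Hedgehog target genes, GLI1 as an activator that is induced by the signal and GLI3 mainly as a repressor. Gli1 was named on only 1 table peak, so its point could not rest on agreement. The summit of that peak, 126776870 on chromosome 10, stood in for it, and both positions 1504 bp to its sides counted as starts. The region at this start, chromosome 10, 126776001 to 126780400, held SMARCA4 of limb, face, forebrain, neural tube and ESC, the last over the summit alone and more than 1 kb from both positions. Limb SMARCA4 ranked 4437 of 5251 there, face 708 of 35099, forebrain 1194 of 7349, neural tube 11400 of 14362 and ESC 5948 of 6764. The face and forebrain peaks were thus high in their lists and the limb peak low. The territory is dense in genes: of its 32 merged FLAG regions 15 lay at starts of other genes, and 6 of its 77 peaks had Gli1 as the nearest gene.

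Gli2 had its point at 120950196 on chromosome 1, on which 23 of 23 table peaks agreed. Its start region, chromosome 1, 120943301 to 120951850, was in 8 of the 14 FLAG lists. Limb SMARCA4 ranked 402 of 5251 in it, face SMARCA4 377 of 35099, SMARCC2 face 234 of 11321 with 214 tags at an authors' fold of 5.36, and EP300 face 2044 of 3589 with an authors' false discovery rate of 79.03%. The EP300 face peak thus passed with a weak value, while the limb and face SMARCA4 and the SMARCC2 face peaks ranked high in their lists. A distal region 19.1 kb below, chromosome 1, 120928901 to 120933300, was in limb, face, neural tube and heart SMARCA4 over H3K4me3 of both tissues and limb H3K27ac. Another, 70.52 kb below, 120876601 to 120882750, was in face, forebrain and neural tube SMARCA4 over limb H3K27ac, with no limb SMARCA4 peak. The region 136.9 kb below, 120813046 to 120813499, was in face and heart SMARCA4 and also lay over limb H3K27ac. Heart SMARCA4 had 7 peaks around Gli2, at ranks from 3421 to 12989 of 13755.

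Gli3 had its point at 15555555 on chromosome 13, from 7 of 10 table peaks, with the others at 15555067. Its start region, chromosome 13, 15552851 to 15557900, was in 7 of the 14 FLAG lists. Limb SMARCA4 ranked 2582 of 5251 there, neural tube 708 of 14362, hindbrain 267 of 5460 and face 8429 of 35099. EP300 face counted 168 tags, SMARCC2 face 68 and NCOA2 49. Hindbrain and neural tube SMARCA4 ranked it within the best 5% of their lists, and limb near the middle of its own. The second limb SMARCA4 peak, chromosome 13, 15433101 to 15436000, rank 3419, lay 121 kb below the point. It was the single limb SMARCA4 peak of the 7 territories that no other FLAG list and no control overlapped, and it lay over limb H3K4me1 and no forebrain mark. Over the whole limb SMARCA4 list 1.657% of peaks (87 of 5251) were in no other SMARCA4 list. Above the start, SMARCC2 in face had 2 peaks at 81.2 kb and 88.65 kb over H3K4me1 of both tissues, the first with 127 tags at an authors' fold of 5.37.

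Grem1 encodes Gremlin 1, the secreted BMP antagonist. All 5 table peaks with its name agreed on its point, 113598803 on chromosome 2. The start region, chromosome 2, 113596251 to 113599750, held SMARCA4 of limb (rank 3839 of 5251), face (6107 of 35099) and neural tube (7594 of 14362). It also held EP300 in ESC (3918 of 10356, 7 tags) and SMARCC2 in face (416 of 11321, 179 tags at an authors' fold of 4.96). All 7 histone lists covered it, as did 3 control lists, those of EP300 face, NCOA2 hindbrain and SMARCA4 midbrain. Relative to list length, SMARCC2 face ranked it best and limb SMARCA4 lowest of the 5. The other 10 FLAG regions of the territory were smaller in reach: 9 distal ones, each in 1 list, and 1 at another gene's start 69.57 kb above. Of the 9, 8 lay over limb H3K4me1, 1 of these also over forebrain H3K4me1, and none over H3K27ac or H3K27me3. At 40.01, 40.95, 42.22 and 48.14 kb above the point, face, neural tube, face and ESC SMARCA4 each had a peak without touching one another.

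Limb enhancers of Grem1 are known, as background, from the neighbouring gene Fmn1. Limb SMARCA4 had no peak within 200 kb of the Fmn1 point, while 78.2% of all genes had at least 1. The 14 FLAG lists had 11 there, and 91.88% of all genes had at least as many. The window was set on the Fmn1 point and the enhancers were not placed, so these counts do not say whether a peak lay at them.

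Bmp4 encodes a BMP ligand that Gremlin 1 binds. All 13 table peaks with its name agreed on its point, 47010274 on chromosome 14. The start region, chromosome 14, 47004351 to 47010882, held SMARCA4 of limb, face, neural tube and heart and SMARCC2 in face, and all 7 histone marks. Only face SMARCA4 (rank 8124 of 35099) and SMARCC2 face (2033 of 11321, 98 tags) came within 1 kb of the point. The limb peak, 2.574 kb below and ranked 4570 of 5251, ended between 1 and 2 kb short of it. A region 10.05 kb below, chromosome 14, 46999051 to 47001400, was at another start and in 5 FLAG lists, limb among them (rank 2729). Another, 7.453 kb above the point, 47016799 to 47018657, was in face and heart SMARCA4 and SMARCC2 face over H3K27me3 of both tissues. The third limb SMARCA4 peak made a region with face 45.89 kb above, 47055351 to 47056972, over limb H3K4me1 and H3K4me3 and no forebrain mark; it overlapped no control. Heart SMARCA4 had 3 peaks at 179.1, 183 and 187.6 kb above the point, with 32, 24 and 28 tags and an authors' false discovery rate between 0.5% and 0.76%.

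**Figure D4:**
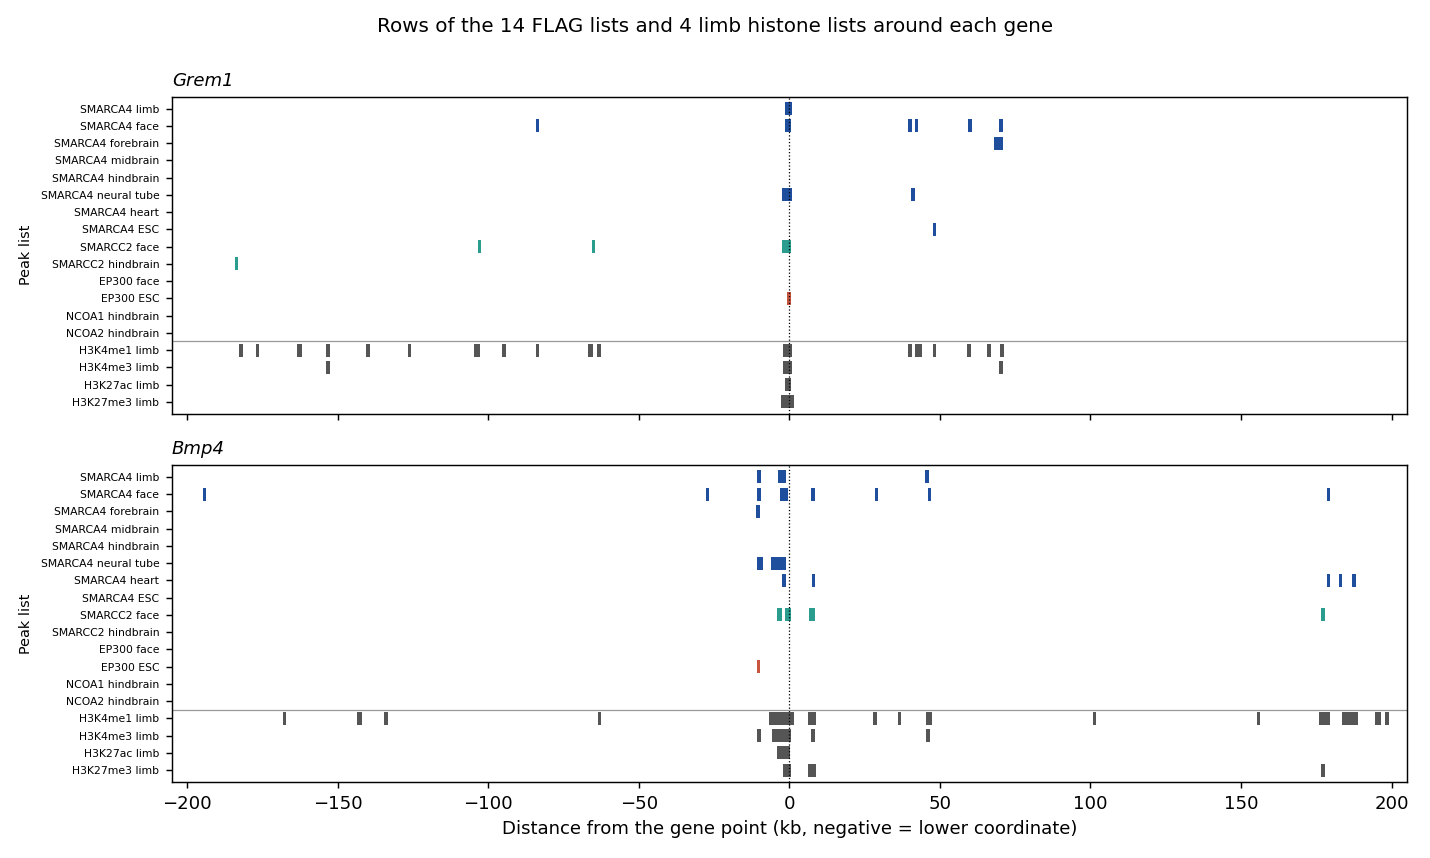
Maps of the territories of Grem1 and Bmp4, with axes and colours as for the ligand, receptor and GLI genes. At Grem1 FLAG lists overlap at the start and, for face and forebrain SMARCA4, at another gene's start 69.57 kb above, and limb H3K4me1 has 18 peaks along the window against 1 of limb H3K27ac.

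The FLAG peaks of the 7 territories merged into 113 regions, of which 7 lay at the genes' own starts, 19 at starts of other genes and 87 more than 1 kb from every placed gene. Of these 87 distal regions 56 overlapped limb H3K4me1, 64.37% (53.38 to 74.35), beside 46.59% of all 48047 distal FLAG regions. Limb H3K27ac overlapped 9, 10.34% (4.841 to 18.73), beside 11.47%. Limb H3K27me3 overlapped 14, 16.09% (9.086 to 25.52), beside 10.21%, and forebrain H3K27me3 10, 11.49% (5.652 to 20.12), beside 4.789%. For H3K4me1 in limb and H3K27me3 in forebrain the share over all regions was below the interval of the 7 territories; for the other 2 it was inside it. Of the 10 regions over forebrain H3K27me3, 5 were around Gli1, and without that territory the share was 7.042% (2.326 to 15.67), an interval that holds the share over all regions; that of limb H3K27me3 was then 9.859%. Beyond 5 kb from every gene point, limb H3K27me3 overlapped 6.757% (2.23 to 15.07) beside 9.083% of all such regions, so the order turned, and forebrain H3K27me3 5.405% (1.492 to 13.27) beside 4.052%. Limb H3K4me1 remained higher there, at 62.16% (50.13 to 73.19) beside 46.19%, and was 64.79% without Gli1. Taken list by list for limb H3K4me1, only ESC SMARCA4 had an interval above the share of its own distal peaks. There the mark overlapped 11 of 14, 78.57% (49.2 to 95.34), beside 31.8%. Of the 17 ESC SMARCA4 peaks in the territories, distal or not, 8 were around Ptch1. This share thus leans on 1 gene, and it was not computed without Ptch1. Over limb H3K4me1 face SMARCA4 had 73.91% (58.87 to 85.73) beside 66.25%, and limb SMARCA4 83.33% (35.88 to 99.58) beside 79.97%. For other marks, ESC SMARCA4 had intervals narrowly above its list for limb H3K27ac, forebrain H3K4me1 and forebrain H3K27me3. Heart SMARCA4 had 1 for forebrain H3K27me3. Regions of 1 territory are neighbours and not independent, so these intervals are too narrow.

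**Figure D5:**
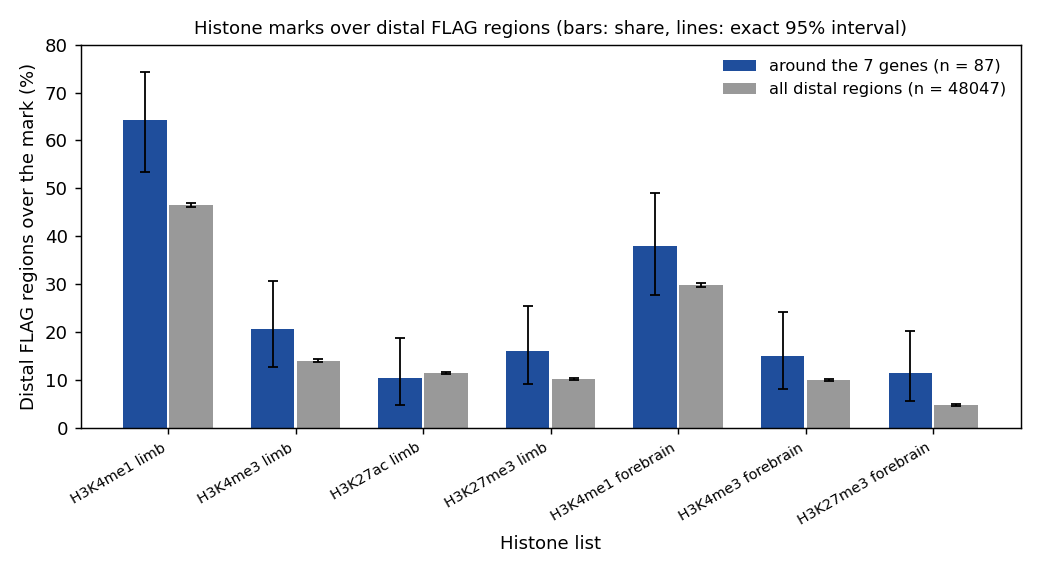
Histone marks over distal FLAG regions. Bars give the percent of regions that overlap each mark by at least 1 bp, blue for the 87 distal regions around the 7 genes and grey for all 48047, and lines are exact 95% intervals; the blue bar for limb H3K4me1 stands at 64.37% against 46.59%.

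The 9 distal regions over limb H3K27ac lay at 2 genes, 4 at Gli2 and 5 at Ptch1. Of the 5 at Ptch1, 2 lay 1.27 and 2.689 kb above the point, inside the H3K27ac peak that covers the start (63663793 to 63670772), and are no separate acetylated sites. Face SMARCA4 held 8 of the 9 and limb SMARCA4 2. No distal region of Shh, Gli1, Gli3, Grem1 or Bmp4 had the mark, and 30 of their 46 lay over limb H3K4me1. In these territories limb H3K27ac had no peak away from gene starts, so the absence says nothing about the cofactor regions themselves. Of the 87 distal regions, 68 were in 1 FLAG list, 26 of them in face SMARCA4 alone, and 8 were in at least 3 lists. Of those 8, 4 were at Gli2, 3 at Ptch1 and 1 at Bmp4.

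Read from the histone side, limb H3K27ac had 26 peaks in the 7 territories, and limb SMARCA4 overlapped 11 of them, 42.31% (23.35 to 63.08), beside 20.96% of the whole list of 17188. Away from gene starts it overlapped 3 of 11, 27.27% (6.022 to 60.97), beside 7.293%. Both shares rest on few peaks, and 4 of the 7 genes have their single H3K27ac peak of the territory at the start or at another gene's start. Limb H3K4me1 had 120 peaks, of which 52 overlapped forebrain H3K4me1, 43.33% (34.32 to 52.69), beside 42.36% of its list. Limb H3K4me1 peaks outnumbered those of forebrain at 6 of the 7 genes: 26 against 15 at Gli2, 20 against 10 at Gli3, 19 against 12 at Ptch1, 18 against 6 at Grem1, 15 against 5 at Bmp4 and 3 against 2 at Shh. At Gli1 both had 19. The limb list is longer (58181 against 34848 peaks) and the median gene had 16 against 10. A surplus at least as large as that of Grem1, 12, was found at 14.45% of all genes.

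Most limb SMARCA4 peaks of the 7 genes were found elsewhere too. Of the 16, face SMARCA4 overlapped 15 (91.53% of the whole limb list), neural tube 12 (90.82%), heart 6 (35.54%), forebrain 5 (52.18%), ESC 4 (8.608%) and hindbrain 3 (30.32%). With 16 peaks, 12 in neural tube is a share of 75% (47.62 to 92.73). Face SMARCA4 had 32 of 68 peaks in no other SMARCA4 list, 47.06% (34.83 to 59.55), beside 54.33% of its list, and heart 9 of 26, 34.62% (17.21 to 55.67), beside 52.76%. ESC SMARCA4 had 9 of 17, 52.94% (27.81 to 77.02), beside 68.26%. Taking the middle 200 bp of each peak in place of its whole width brought the share of limb peaks found in another SMARCA4 list from 93.75% to 43.75%. The median width was 2300 bp in limb and 489 bp in face.

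Control lists overlapped 13 of the 16 limb SMARCA4 peaks, 81.25% (54.35 to 95.95), beside 86.67% of the limb list. The limb control sample was not analysed here, and the overlaps came from controls of other tissues, mainly those of EP300 face (28895 peaks) and SMARCA4 midbrain (19772). With at least 50% of the peak covered the share was 6.25%. The median width was 2300 bp in limb SMARCA4, 234 bp in the EP300 face control and 546 bp in the midbrain control. A control peak of median width thus cannot cover 50% of a limb peak of median width. The fall can therefore not be read as a lack of control overlap. The 3 limb peaks over no control were those at the Gli1 start, 121 kb below Gli3 and 45.8 kb above Bmp4. SMARCC2 face peaks overlapped their own control in 0 of 24, beside 0.1767% of their whole list. EP300 face peaks did so in 5 of 5, beside 64.45%, so all EP300 face peaks named here lie over a control, as most of that list does.

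Beyond the 7 genes, a list of 41 other genes of Hedgehog, BMP and ridge signalling was counted in the same way, and all 41 had a point. Limb SMARCA4 had a peak within 200 kb of 35, 85.37% beside 78.2% of all genes, and at the start of 18, 43.9% beside 25.4%. Among receptors and transducers, Smo, Cdon, Gas1, Bmpr2, Bmpr1b, Smad1, Smad6, Smad7 and Smad9 had it at the start, and Sufu, Boc, Bmpr1a, Smad4 and Smad5 did not. Of secreted antagonists, Nog and Chrd had it and Fst had none within 200 kb. Hhip, Fgf10 and Tbx3 also had none in reach. Disp1 had none either, but the tables place it on a piece of chromosome 1 without a position, where no mark lay at its start, so its locus was not read. Face SMARCA4 held 34 starts, 82.93% beside 71.6% of all genes. Neural tube held 32, 78.05% beside 52.6%, heart 17, 41.46% beside 20.1%, and ESC 0 beside 6.25%. Limb H3K4me3 and H3K27me3 were both at 21 starts, 51.22%, against 24% of all genes, and limb SMARCA4 joined them at 8. All 3 Hedgehog ligand genes, Shh, Ihh and Dhh, had limb H3K27me3 at the start and neither limb H3K27ac nor limb SMARCA4. The BMP ligand genes Bmp2 and Bmp7 also had limb H3K27me3 at the start, as Bmp4 did, but together with limb H3K27ac. Limb SMARCA4 lay at the start of Bmp2 and not at that of Bmp7. Bmp5 had neither limb SMARCA4 nor any of the marks at its start.

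Likeness over the 21 FLAG and histone lists was measured by Pearson's r of log2(1 + peaks within 200 kb), with genes of other chromosomes. The lists differ in length for every gene, so r is high throughout: its median over all genes ran from 0.53 for Shh to 0.79 for Gli2. Nearest to Shh were Ccdc39 (0.93), Rfwd3 and Glg1. Nearest to Ptch1 were Slc6a6 (0.96), D4Ertd196e and AK076839, and nearest to Gli1 were Il27ra, ClaspL and Gemin7 (0.97 each). Gli2 was nearest to 2610039C10Rik and AK090163 (0.98 each) and Mrap, and Gli3 to AK090251 (0.92), ten-m3 and AK076918. Nearest to Grem1 were Odz4 (0.95), AK020588 and Tm2d3, and to Bmp4 9030611O19Rik and Dap (0.96 each).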

How the data were processed

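Peak lists of 30 of the 34 samples were used: 14 FLAG, 6 FLAG controls, 7 histone and 3 histone inputs. Not analysed here were 4 SMARCA4 controls, those of limb, neural tube, heart and forebrain. Fragments of 300 to 500 bp gave reads of 36 or 50 bp, per the labels' protocols. Per the submitters' processing notes, BWA and the build mm9 were used for mapping; the peak caller is not given in the sources used here. Per the file headers, 16 deposited tables give each peak's count of tags, a score, a ratio of fold enrichment, the percent false discovery rate and the nearest gene with its distance. The other 14 deposited lists give positions and a rank. Library depth is unknown.

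Gene points came from summit plus or minus distance where at least 2 peaks agreed. Overlap means at least 1 bp. Start, distal and territory limits were 1, 1 and 200 kb; narrower territories, start limits of 0 and 2 kb, a distal limit of 5 kb, the better 50% of each list by rank, peaks covered by at least 50% and the nearest gene were tried as alternatives. Python 3.11.15 with numpy 2.4.6 and scipy 1.17.1 was used, and the point, count and overlap functions were tested on simulated peaks. All 7 genes, the neighbours Lmbr1, Rnf32 and Fmn1, the 41 pathway genes and the marker lists were chosen with earlier results of these data known. Coordinates were printed for at most 4 regions a gene: those with limb SMARCA4, at the start, in most FLAG lists, or over limb H3K27ac. Likeness names the 3 genes with the highest r. A few genes of these lists are not reported here.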

Additional observations from a re-analysis of the deposited data

How the results depend on the processing

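With 1 library per condition, no value here has a replicate check, and tag counts, where given, limit precision. Of the alternative values for the main results, 103 were classed as unchanged and 32 as moved. The unchanged class is wide: it holds the fall of ESC SMARCA4 sharing from 47.06% to 23.53% by the middle 200 bp. For the FLAG peak counts of single genes, 8 alternative values were classed as unchanged and 27 as moved. Counting only peaks over the point left 3 of 6 starts to face SMARCA4, 1 of 2 to hindbrain SMARCA4, 0 of 1 to heart SMARCA4 and 1 of 3 to EP300 in ESC. A limit of 2 kb gave heart SMARCA4 2 starts and ESC SMARCA4 1. The better 50% of each list by rank left 2 of 4 starts to limb SMARCA4, 1 of 4 to neural tube SMARCA4 and 3 of 7 to forebrain H3K4me3. It left 111 of 230 FLAG peaks, 6 of 16 limb SMARCA4 peaks and a limb peak at 4 of 7 genes, and moved the distal shares of forebrain H3K4me1 from 37.93% to 63.33%, limb H3K27ac from 10.34% to 23.33% limb H3K27me3 from 16.09% to 30% and forebrain H3K27me3 from 11.49% to 26.67%. Beyond 5 kb from every gene point the last 2 were 6.757% and 5.405%. For the better 50% of each list no share over all distal regions is given, so those values cannot be set against a background. FLAG peaks numbered 142 within 100 kb, 103 within 50 kb, 106 by nearest gene and 112 without peaks over a control; limb SMARCA4 peaks numbered 10 by nearest gene and 3 without peaks over a control, at 3 genes. With 50% of the peak covered, control overlap fell from 51.3% to 18.7% over the 14 FLAG lists, from 64.29% to 28.57% over the 6 with a control, and from 81.25% to 6.25% in limb SMARCA4; with the own control alone the 6 lists had 14.29%. Limb SMARCA4 peaks are wider than control peaks, which by itself limits their share at 50%. By the middle 200 bp, sharing moved from 52.94% to 27.94% in face SMARCA4 and from 93.75% to 43.75% in limb. Without the face list, heart sharing moved from 65.38% to 38.46%. Except where an alternative by construction holds fewer or narrower peaks, the cause was not tested. Chosen after seeing the data, leaving out face SMARCA4 gave 162 FLAG peaks, and taking every agreed position as a start changed none of the counts of starts in the 21 FLAG and histone lists, and leaving out the Gli1 territory kept the distal shares of the 5 marks tried within their intervals. No paired analysis was possible because each condition has 1 library and the labels give no replicate numbers.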
